A study of Mus musculus with 35 samples.

Results

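Mouse neural progenitor cells (NPCs) without Mettl14 were compared with wild-type (WT) NPCs in the first of the study's RNA sequencing batches. The comparison takes in the 3 homozygous Mettl14 knockout (KO) libraries and the 3 WT libraries of batch 1, which are 6 of the 35 samples in the series and 6 of its 19 RNA-seq libraries. They were picked by genotype and batch as the labels give them, and no measured value entered the choice. The 3 heterozygous (Het) libraries of the same batch shared the fit, so that they add to the estimate of spread, and their levels are given as a further genotype. All 9 libraries hold polyadenylated RNA, further depleted of ribosomal RNA, from cultures of embryonic NPCs (the age of the embryos is not given in the sources used here), and each library of a group carries a strain number of its own. The deletion was made with loxP sites around exon 2. The labels describe both a germline deletion through EIIa-Cre and a brain deletion through nestin-Cre, which acts in neural progenitors, and do not say which mice gave these cultures. Nothing in them says whether cultures of 1 genotype came from separate litters, so p-values measure the spread between these cultures, which may be technical in part.

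Mettl14 is the partner protein of the methyltransferase Mettl3, and together they form the core of the writer of N6-methyladenosine (m6A), the most common internal mark of mRNA. The mark lies mostly near stop codons and in long exons, and reader proteins that bind it can change how fast a transcript is spliced, translated or degraded. In the embryonic mouse cortex, loss of this writer is known for altered cell cycle and timing of differentiation of radial glia, the neural stem cells that NPC cultures stand for. Many transcripts of neural progenitors, among them those of transcription factors and Notch pathway genes, carry the mark.

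The KO and WT libraries held between 14.09 M and 20.05 M fragments (M, 1e6), and the 100 genes with the highest levels took between 15.6% and 16.2% of the level in each KO and WT library. Levels are given as CPM (fragment counts scaled to 1e6 per library), which are not corrected for transcript length and so compare 1 gene between libraries, not 2 genes with each other. On the first principal component, with 79.2% of the variance, the KO libraries lay between 68.7 and 83.8, and the Het and WT libraries lay between −43.9 and −31.7. NPC markers were present in every library. Of 14 microglia markers, C1qb, C1qc, Itgam, Tyrobp, Trem2 and Ly86 had no fragment in any KO or WT library, and the endothelial marker Cdh5, the fibroblast marker Dcn and the pluripotency markers Zfp42 and Dppa3 had none either. Others were present at low counts: the endothelial marker Vwf had 56, 117 and 77 fragments in KO libraries and 10, 12 and 11 in WT libraries, and the microglia markers Ptprc (9, 9 and 5 in KO, 0, 0 and 2 in WT) and Aif1 (5, 4 and 4 in KO, 0 in each WT library) were too low to be tested. Of 14 markers of fibroblasts, mesenchyme and pericytes 6 were tested. They summed to between 18.4 and 20.4 CPM in KO libraries and between 8.48 and 9.09 CPM in WT libraries. Of these 6, 4 were higher and none lower, where 34.2% of all genes tested were higher and 35.0% lower in KO. Pdgfrb had 56, 79 and 37 fragments in KO libraries and 2, 2 and 1 in WT libraries. Its WT counts alone would not have passed it for testing. The untested markers went both ways. Among them Postn had 3, 16 and 7 fragments in KO and 2, 0 and 1 in WT libraries. Rgs5 had 0, 1 and 0 in KO and 6, 2 and 1 in WT libraries. Bulk RNA cannot tell more cells of a type from more RNA per cell. Of 11 tested markers each, neurons had 2 higher and 5 lower, the oligodendrocyte lineage 3 and 3, and astrocytes 8 and 2. Of 5 tested endothelial markers 2 were higher and 1 lower (sums of 10.3 to 15.9 CPM in KO and 6.11 to 7.78 CPM in WT libraries), of 3 pluripotency markers 1 and 1 (10.6 to 14.1 CPM in KO and 16.2 to 19.3 CPM in WT), of 8 neural crest and Schwann cell markers 4 and 3, of 4 choroid plexus markers 1 and 1, and of 2 microglia markers 0 and 1. Neuron markers summed to between 1131 and 1294 CPM in KO libraries and between 1474 and 1482 CPM in WT libraries. Most of this sum was Map2, with 18004, 19156 and 15391 fragments in KO libraries and 17610, 17519 and 21417 in WT libraries. Single neuron markers went both ways. Gap43 had 1838, 902 and 963 fragments in KO and 4546, 3546 and 5034 in WT libraries, and Dcx had 221, 779 and 426 in KO and 41, 78 and 61 in WT libraries. Astrocyte markers summed to 3972, 5634 and 4582 CPM in KO libraries and to 2285, 2273 and 1951 CPM in WT libraries. Much of this difference was Apoe, with 30446, 49164 and 28953 fragments in KO libraries and 3459, 4262 and 2666 in WT libraries. The 2 lower markers were Aldh1l1 (754, 910 and 634 fragments in KO, 3992, 3280 and 3816 in WT) and Fgfr3. The KO library with the highest astrocyte sum was also the farthest along the first component and had the highest Gfap level. Without that library 4398 genes were higher and 4511 lower in KO by the test described below. The part of these other cell types in the results was not tested. The Y-linked genes Ddx3y, Eif2s3y and Kdm5d were expressed in 1 of 3 KO libraries, the one just described, and in 1 of 3 WT libraries, and Xist in the other 2 of each group.

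The count over the whole Mettl14 locus was almost the same in the 2 genotypes. Mettl14 (chromosome 3, 123367853 to 123385990, mm10) had 22.4, 20.04 and 22.4 CPM in KO libraries and 23.3, 24.9 and 22.6 CPM in WT libraries, with a Het mean of 23.7. The KO libraries lay just below the WT libraries without overlap, yet the difference did not pass the test (log2 fold change −0.12, SE 0.08, edgeR adjusted p = 0.22). Reads from all exons of the locus enter this count, also those that the knockout leaves in place, so it is no check of the deletion. Among the 8 tested genes of the writer complex 6 were higher in KO and 1 was lower, with a median log2 fold change of 0.29. The lower one was Mettl3, which encodes the catalytic subunit, at 30.4, 27.5 and 25.7 CPM in KO libraries and 42.6, 40.4 and 42.4 CPM in WT libraries. The KO libraries were lower without overlap (log2 fold change −0.58, SE 0.08, edgeR adjusted p = 4.6e-05). The RNA-binding adaptor Rbm15b had 254, 259.9 and 242 CPM in KO libraries, against 135, 138 and 128 CPM in WT libraries, so that each KO library lay far above each WT library (log2 fold change 0.92, SE 0.05, and 0.40 with limma on log2(FPKM + 1)). The genes of the ubiquitin ligase subunit Cbll1 (0.87, SE 0.10) and the zinc finger subunit Zc3h13 (0.51, SE 0.06) also rose. Here and below, a pair of values in parentheses after a gene is its log2 fold change, KO over WT, and its SE. All genes said to rise or fall passed edgeR's test at an adjusted p below 0.05.

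Loss of Mettl14 went with a change in RNA level of most genes, about equally in both directions. Of 13671 genes tested, 9462 (69.2%) were called at an adjusted p below 0.05 in edgeR's quasi-likelihood test, 4681 (34.2%) higher and 4781 (35.0%) lower in KO. The libraries of the 2 genotypes did not overlap for 9282 called genes (67.9%). Most shifts were small: 3021 of the higher and 3239 of the lower genes changed by less than 2-fold. Against a fold of 1.5, tested with edgeR's glmTreat, 4053 genes (29.6%) passed, 2057 (15.0%) higher and 1996 (14.6%) lower, whereas limma on log2(FPKM + 1) passed 2263 in all. At the far end, 147 genes rose and 161 fell by a log2 fold change of 3 or more. There were 17 genes under 1 CPM in every WT library that reached at least 5 CPM in every KO library, and 19 with the opposite pattern. For the 3173 called, non-overlapping genes past 2-fold, the Het mean lay at a median of 0.042 of the way from the WT mean to the KO mean (quartiles −0.031 and 0.131). The median log2 fold change of all genes was 0.00. Scaling by library totals alone turned the balance to 5194 higher and 4274 lower, and limma on log2(FPKM + 1) to 3695 higher and 5124 lower, so the near-even split depends on the scaling.

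**Figure D1:**
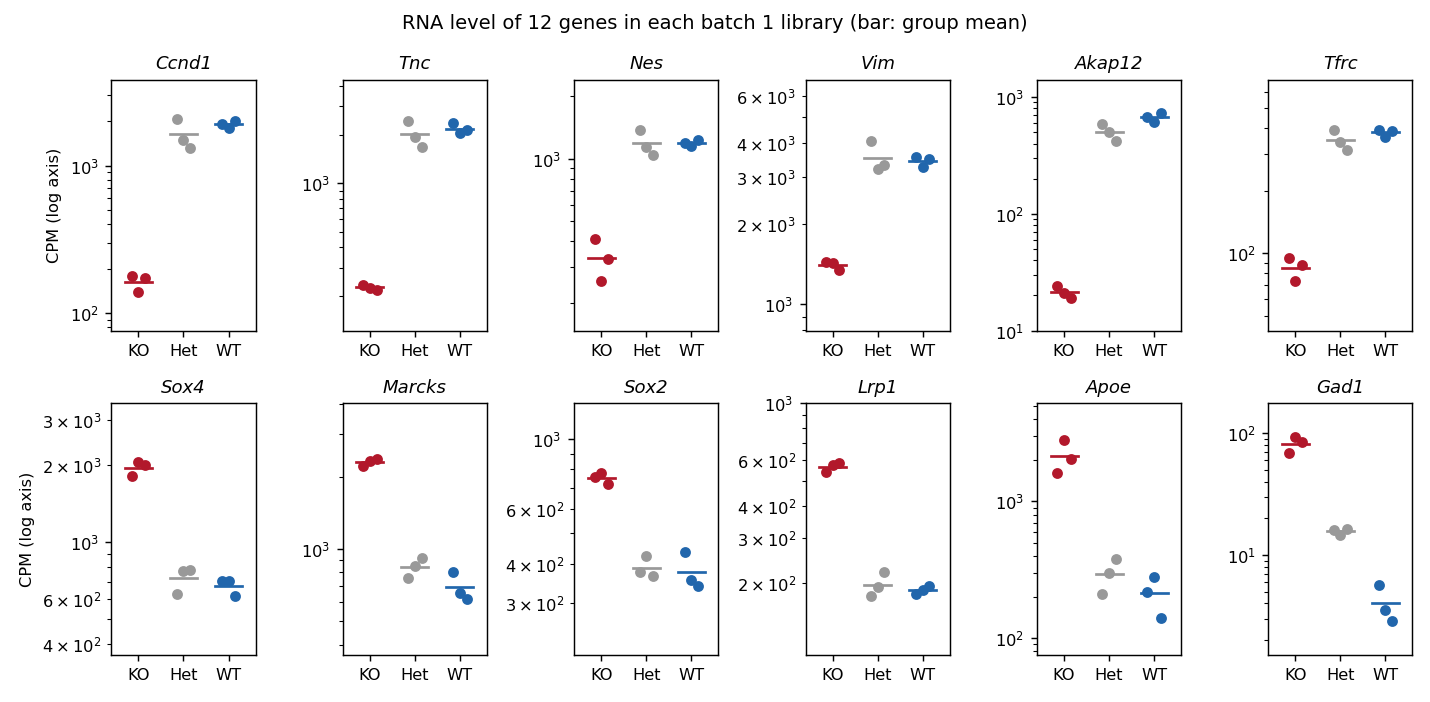
RNA level in CPM, on a log axis of its own per gene, of 12 genes in the 3 KO, 3 Het and 3 WT libraries of batch 1, with bars at the group means. Ccnd1, Tnc, Nes, Vim, Akap12 and Tfrc were lower and Sox4, Marcks, Sox2, Lrp1, Apoe and Gad1 higher in every KO library than in every WT library, and the Het libraries lay nearer to WT than to KO, though for Gad1 above each WT library.

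Among called genes whose libraries did not overlap and that reached at least 20 CPM in each library of the higher genotype, the 8 with the largest falls were nearly silent in KO or left at a small share of the WT level. Akap12 (chromosome 10, 4266329 to 4359918), which encodes a scaffold for protein kinases A and C, was at 24.2, 21.01 and 18.99 CPM in the KO and at 675, 612 and 733 CPM in the WT libraries. Tagln2 (chromosome 1, 172500246 to 172507375), an actin-binding protein gene, measured 12.96, 8.62 and 10.02 CPM in KO cultures and 304, 286 and 303 CPM in WT cultures. The Het libraries averaged 504 CPM of Akap12 and 288 CPM of Tagln2, and for both genes the KO libraries stood apart from all 6 others (Akap12 −4.97, SE 0.15, Tagln2 −4.81, SE 0.17). Dhh (chromosome 15, 98891034 to 98898540), the gene of desert hedgehog, a ligand best known from Schwann and Sertoli cells, came to 0.211, 0.286 and 0.0706 CPM in KO and 45.2, 28.6 and 24.9 CPM in WT libraries. The adhesion receptor gene Gpr98 (chromosome 13, 81095065 to 81633144), also called Adgrv1, had 1.53, 1.71 and 1.98 CPM in KO libraries and 82.4, 54.1 and 43.6 CPM in WT libraries. Neither gene's groups overlapped (Dhh −7.33, SE 0.43, Gpr98 −5.12, SE 0.28). The other members of this group of 8 were Anxa3 (−9.02, SE 0.57), Fam135b (−8.23, SE 0.41), Golga7b (−6.27, SE 0.31) and 9330188P03Rik (−5.02, SE 0.20), and edgeR adjusted p-values of the 8 ran from 1.9e-08 (Akap12) to 2.6e-06 (Anxa3). Fold changes of genes with only a few fragments in a genotype depend on the prior count of the fit and are not exact ratios. With limma on log2(FPKM + 1) the values were −5.38 for Anxa3, −3.76 for Dhh, −1.77 for Gpr98, −2.04 for Fam135b and −3.40 for Golga7b.

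The 8 largest rises under the same rule were in genes at 13.9 CPM or less in every WT library. The T-type calcium channel gene Cacna1g (chromosome 11, 94408391 to 94474312) had 42.3, 58.5 and 47.7 CPM in KO libraries, against 1.76, 2.96 and 2.98 CPM in WT libraries. It was low in each WT library and high in each KO library (4.26, SE 0.23). Ahnak (chromosome 19, 8989284 to 9076926), which encodes a very large scaffold protein, was at 202, 572 and 375 CPM in the KO and at 7.59, 13.9 and 7.07 CPM in the WT libraries, so its KO libraries varied by more than 2-fold among themselves without reaching the WT range (5.34, SE 0.53, edgeR adjusted p = 7.6e-05). Other rises of this group were the olfactory receptor gene Olfr1351 (8.56, SE 0.19), the thyroglobulin gene Tg (6.94, SE 0.24), Gad1 (4.34, SE 0.21), which makes the transmitter GABA, Gm3604 (4.28, SE 0.18) and 2810049E08Rik (4.22, SE 0.18). With limma on log2(FPKM + 1) the values were 3.23 for Ahnak, 2.45 for Cacna1g, 2.197 for Olfr1351, 2.199 for Tg and 2.11 for Gm3604.

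Measured as a difference in CPM, which favours long and highly expressed transcripts, the 8 largest losses were in Vim, Tnc, Ccnd1, Ckb, Hspa8, Actb, Zeb1 and Fabp7. Tnc, the gene of the matrix protein tenascin C, measured 235, 226 and 218 CPM in KO cultures and 2359.7, 2037 and 2127 CPM in WT cultures. Ccnd1, the cyclin D1 gene, came to 178, 138 and 172 CPM in KO and 1911, 1792 and 2022 CPM in WT libraries. The brain creatine kinase gene Ckb had 4252, 3161 and 3392 CPM in KO libraries and 5924, 5733 and 5737 CPM in WT libraries. The transcriptional repressor gene Zeb1 had 1107, 1008 and 1060.0 CPM in KO libraries, against 1954, 2378 and 2779.5 CPM in WT libraries, with more spread among the WT than among the KO libraries. None of these 4 overlapped between genotypes (Tnc −3.26, SE 0.13, Ccnd1 −3.55, SE 0.18, Ckb −0.69, SE 0.12, Zeb1 −1.16, SE 0.11), nor did the chaperone gene Hspa8 (−0.94, SE 0.08) or the actin gene Actb (−0.76, SE 0.06).

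Among the 8 largest gains in CPM were Marcks, Apoe, Ednrb and Ntrk2. Marcks, which encodes a protein kinase C substrate that links membrane and actin, was at 2217, 2322 and 2361 CPM in the KO and at 802, 658 and 619 CPM in the WT libraries. Apoe, the main apolipoprotein gene of the brain, measured 1604, 2807 and 2044 CPM in KO cultures and 217, 280.2 and 139.6 CPM in WT cultures. The KO libraries of Apoe spread over a wider range than those of Marcks, but both genes separated the genotypes (Marcks 1.73, SE 0.10, Apoe 3.34, SE 0.36). The endothelin receptor gene Ednrb came to 1217, 1685 and 1496 CPM in KO and 584, 525 and 401 CPM in WT libraries. Ntrk2, which encodes the receptor of brain-derived neurotrophic factor, had 904, 1219 and 1043 CPM in KO libraries and 378, 399 and 356 CPM in WT libraries. Both receptors were higher in each KO library than in any WT library (Ednrb 1.54, SE 0.18, Ntrk2 1.48, SE 0.12). The RNA subunit of ribonuclease P, Rpph1 (0.90, SE 0.14), and 2610203C20Rik (1.98, SE 0.16) were among the 8 as well, Rpph1 at 0.51 with limma on log2(FPKM + 1). Rpph1 had a value of −1.59 in the third batch, a difference that the interaction test of genotype and batch did not call (adjusted p = 0.087).

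The NPC markers went both ways, at shares not far from those of all genes tested (34.2% higher and 35.0% lower). Of 18 markers tested, 8 (44.4%) rose and 7 (38.9%) fell, and their median log2 fold change was 0.25. Nes, the gene of nestin, had 409, 255 and 327 CPM in KO libraries, against 1186, 1148 and 1225 CPM in WT libraries, and Vim, the gene of vimentin, was at 1444, 1421 and 1342 CPM in the KO and at 3549, 3255 and 3499 CPM in the WT libraries. All 3 KO libraries were below all WT libraries for both genes (Nes −1.85, SE 0.17, Vim −1.29, SE 0.09). Fabp7, the fatty acid binding protein of radial glia (−1.36, SE 0.11), the surface glycoprotein gene Prom1 (−1.70, SE 0.17) and the oligodendrocyte and progenitor factor gene Olig2 (−0.86, SE 0.10) fell as well.

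Several transcription factor and signalling markers of NPCs rose instead. Sox2, the factor of neural stem cell identity, measured 759, 781 and 717 CPM in KO cultures and 434, 356 and 340.2 CPM in WT cultures. The Notch receptor gene Notch1 came to 495, 516 and 505 CPM in KO and 245, 255 and 266 CPM in WT libraries, and its target Hes5 had 191, 240.0 and 199 CPM in KO libraries and 80.7, 86.4 and 70.9 CPM in WT libraries. In these 3 genes every KO library exceeded every WT library (Sox2 1.00, SE 0.09, Notch1 0.99, SE 0.06, Hes5 1.40, SE 0.14). The RNA-binding protein gene Msi1 (1.37, SE 0.12), the EGF receptor gene Egfr (0.41, SE 0.10), the glutamate transporter gene Slc1a3 (0.45, SE 0.07) and Gfap (3.72, SE 0.83), an astrocyte and stem cell filament gene, rose too. Gfap had 15.7, 78.9 and 33.9 CPM in KO libraries, against 3.83, 4.67 and 1.47 CPM in WT libraries, so its KO level differed more than 5-fold between cultures. Sox9 (0.01) and Cdh2 (0.11) were not called (edgeR adjusted p = 0.97 and 0.16).

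Progenitor transcription factors of the Sox, Pou and basic helix-loop-helix families were more often higher. Of 37 tested, 20 rose and 7 fell, with a median log2 fold change of 0.59 (0.33 with limma on log2(FPKM + 1)), and 31 of them carried m6A regions in all 4 lists described below, as did 5845 of 13668 genes with an annotated transcript. Sox4, which encodes a factor of progenitors and young neurons, was at 1807, 2052 and 1996 CPM in the KO and at 704, 701 and 614 CPM in the WT libraries. Pou3f2, the gene of the upper-layer and progenitor factor Brn2, measured 165, 157 and 159.6 CPM in KO cultures and 60.5, 51.8 and 50.01 CPM in WT cultures. Sox21, which encodes a repressor that works against other Sox proteins, came to 193, 191 and 197 CPM in KO and 76.3, 80.6 and 74.5 CPM in WT libraries. The 3 genes were separated by genotype (Sox4 1.54, SE 0.09, Pou3f2 1.57, SE 0.08, Sox21 1.33, SE 0.05), while Pou3f1 (−3.42, SE 0.37) fell to about 1 CPM. Homeobox and T-box factors of forebrain regions had 8 of 23 higher and 8 lower, near the shares of all genes tested. The ventral factor gene Nkx2-2 (−2.01, SE 0.20) and the rostral factor gene Otx2 (−3.05, SE 0.42) fell.

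**Figure D2:**
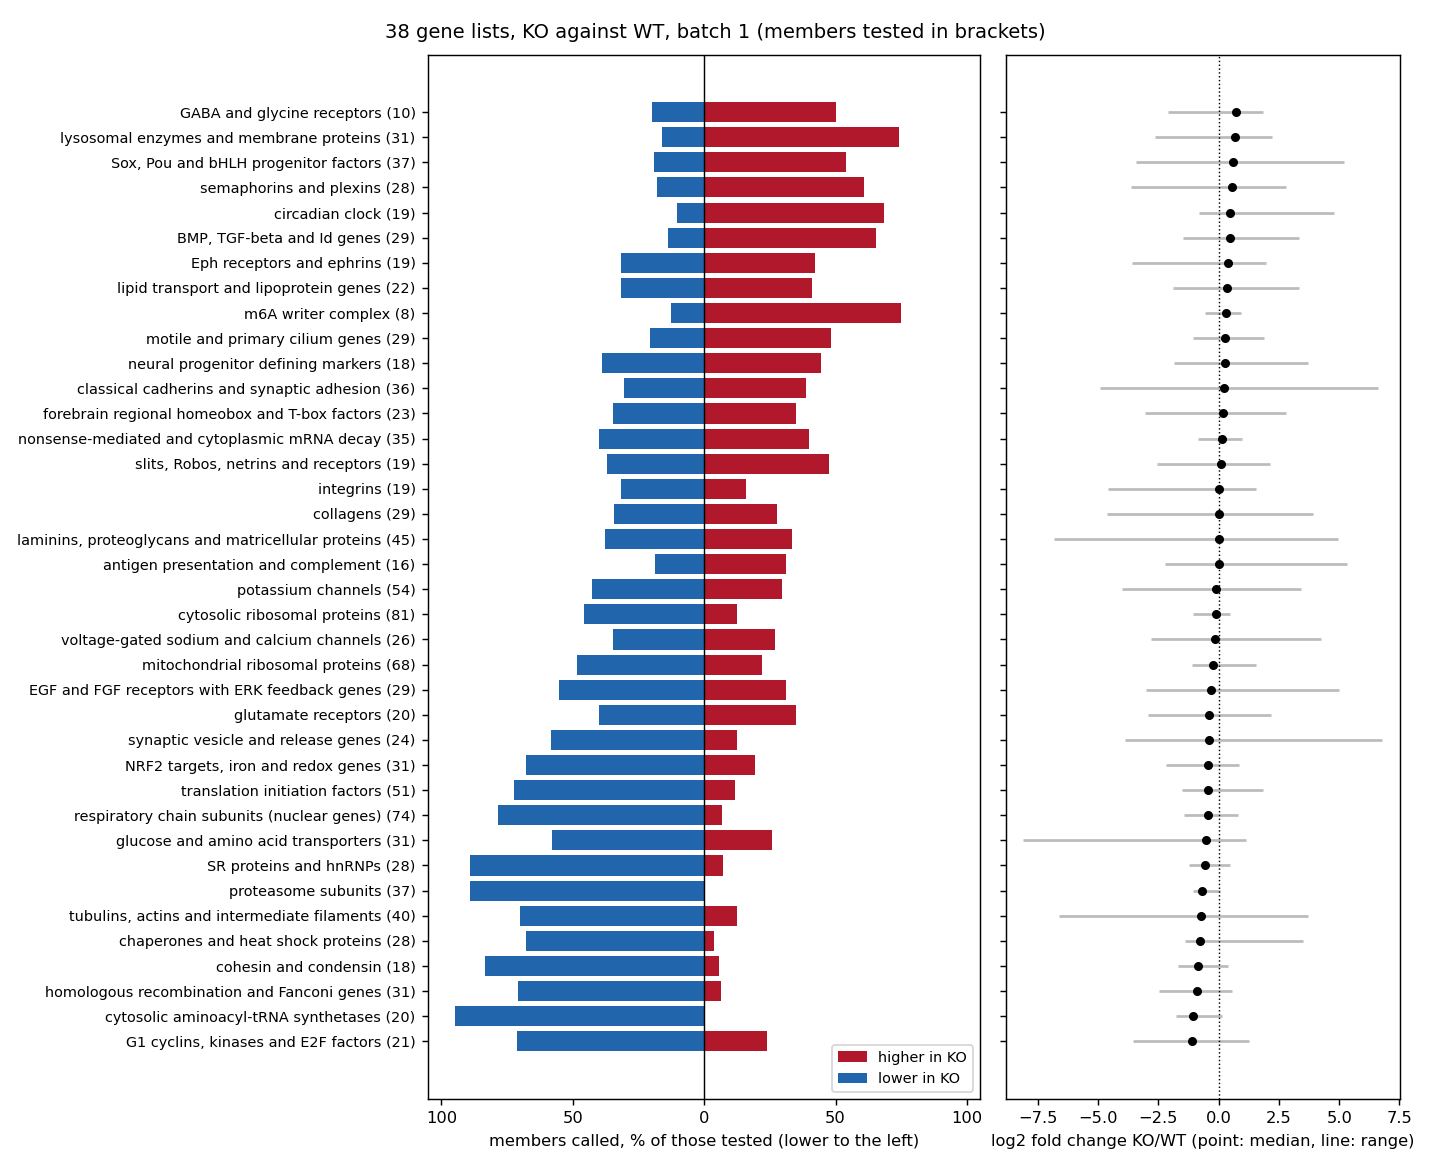
Share of the tested members of 38 gene lists that were called higher (right) or lower (left) in KO, in percent, and the median and range of their log2 fold changes in KO over WT. Lists of lysosomal, clock and BMP or TGF-beta genes hold mostly higher members, and lists of aminoacyl-tRNA synthetases, proteasome subunits and SR proteins or hnRNPs mostly lower ones. The dotted line marks the median of all genes tested.

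Genes that regulate the passage from G1 into S phase, whether they promote or restrain it, were mostly lower. Of 21 tested cyclins, kinases, E2F and related factors, 15 fell and 5 rose, with a median log2 fold change of −1.09. Cdk2, the kinase partner of cyclin E, had 39.1, 33.6 and 32.8 CPM in KO libraries and 69.1, 77.3 and 79.1 CPM in WT libraries without overlap (−1.09, SE 0.09). Mycn (1.25, SE 0.20), the Myc gene of neural progenitors, and the pocket protein gene Rbl2 (0.36, SE 0.07) were among the 5 that rose. Of 31 genes of homologous recombination and Fanconi repair, 22 fell and 2 rose (median −0.91). The replication nuclease and helicase gene Dna2 had 7.27, 4.11 and 4.94 CPM in KO libraries, against 31.3, 30.1 and 30.01 CPM in WT libraries (−2.47, SE 0.17), and Nbn (−0.97, SE 0.09), part of the break-sensing complex, also fell. Of 18 cohesin and condensin genes, 15 fell and 1 rose (median −0.86). The cohesin core gene Smc1a was at 147, 108 and 128 CPM in the KO and at 330.3, 329 and 329 CPM in the WT libraries, so that the KO libraries lay far below the WT libraries (−1.37, SE 0.09). The one that rose was Nipbl, the cohesin loader gene (0.38, SE 0.06).

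Most genes of tRNA charging, translation initiation, the proteasome and chaperones were lower. Of 20 cytosolic aminoacyl-tRNA synthetase genes, which charge tRNAs with amino acids, 19 fell and none rose, with a median log2 fold change of −1.04 and a highest value of 0.14. Gars, for glycine, measured 56.3, 48.3 and 53.4 CPM in KO cultures and 172, 181 and 179 CPM in WT cultures, and Tars, for threonine, came to 45.7, 46.7 and 50.5 CPM in KO and 118, 114 and 111 CPM in WT libraries. The groups were far apart for both (Gars −1.75, SE 0.08, Tars −1.27, SE 0.07). Of 51 translation initiation factor genes 37 fell and 6 rose (median −0.46), and the helicase gene Eif4a1 had 566, 485 and 514 CPM in KO libraries and 1275, 1268 and 1247 CPM in WT libraries (−1.28, SE 0.08). Of 37 proteasome subunit genes 33 fell and none rose (median −0.70, range −1.08 to 0.08). The ATPase subunit gene Psmc4 had 60.99, 63.9 and 59.7 CPM in KO libraries, against 129.6, 130.1 and 125 CPM in WT libraries, with little spread in either group (−1.06, SE 0.06). Chaperone and heat shock genes numbered 19 lower and 1 higher of 28 (median −0.79). The one that rose was the small heat shock protein gene Hspb8 (3.52, SE 0.27), with 14.3, 28.7 and 24.7 CPM in KO libraries and 1.88, 1.64 and 2.304 CPM in WT libraries, while the chaperonin subunit genes Cct3 (−1.40, SE 0.08) and Cct6a (−1.36, SE 0.07) fell.

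Most ribosomal protein genes changed by small amounts or were not called. Of 81 cytosolic ribosomal protein genes 37 fell and 10 rose, at a median log2 fold change of −0.11, and only 2 passed a 1.5-fold fall. The median was −0.04 with library totals as the only scaling and −0.27 with limma on log2(FPKM + 1). Reads of these genes can be shared with processed copies elsewhere in the genome, so single members are uncertain. Of 68 mitochondrial ribosomal protein genes 33 fell and 15 rose (median −0.22, and −0.14 with library totals). Mrpl43 had the largest rise of the mitochondrial list, with 99.6, 100.1 and 96.01 CPM in KO libraries and 31.4, 34.5 and 34.6 CPM in WT libraries (1.56, SE 0.07). Nuclear genes of the respiratory chain, which feed its complexes with subunits, were lower for 58 and higher for 5 of 74 (median −0.46). The ATP synthase subunit gene Atp5f1 was at 182, 169 and 180.4 CPM in the KO and at 379.5, 370.3 and 343 CPM in the WT libraries (−1.04, SE 0.05).

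Splicing regulators mostly fell, while mRNA decay factors rose and fell at shares not far from those of all genes tested. Of 28 SR protein and hnRNP genes 25 fell and 2 rose, with a median log2 fold change of −0.55. Hnrnpab, which encodes a nuclear RNA-binding protein, measured 282, 279 and 274 CPM in KO cultures and 652, 641 and 657 CPM in WT cultures, and Srsf7, for an SR splicing factor, came to 124, 122 and 125 CPM in KO and 240.1, 236 and 228 CPM in WT libraries. Each was lower in all 3 KO libraries (Hnrnpab −1.22, SE 0.06, Srsf7 −0.93, SE 0.06). Of 35 genes of nonsense-mediated and cytoplasmic decay 14 rose and 14 fell (40% each), where 34.2% of all genes tested rose and 35.0% fell. Zfp36l1, which binds AU-rich elements of unstable mRNAs, had 145, 133 and 127 CPM in KO libraries and 63.5, 70.7 and 74.7 CPM in WT libraries (0.96, SE 0.08). Cnot4 (0.70, SE 0.06, and 0.43 with limma on log2(FPKM + 1)) rose, while the deadenylase gene Cnot6 (−0.57, SE 0.04) and the exonuclease gene Xrn2 (−0.64, SE 0.05) fell.

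Lysosomal genes were mostly higher. Of 31 tested, 23 rose and 5 fell, with a median log2 fold change of 0.67. Naglu, the gene of an enzyme that degrades heparan sulfate, had 78.5, 58.5 and 62.5 CPM in KO libraries, against 13.99, 15.6 and 13.2 CPM in WT libraries, and Psap, the gene of the saposin precursor, was at 991, 1014 and 1026 CPM in the KO and at 561, 613 and 571 CPM in the WT libraries. KO libraries were higher throughout (Naglu 2.22, SE 0.13, Psap 0.80, SE 0.05), whereas the cathepsin gene Ctsz (−2.21, SE 0.10) fell. Of 22 lipid transport genes 9 rose and 7 fell. The lipoprotein receptor gene Lrp1 measured 540.1, 575 and 589 CPM in KO cultures and 181, 188 and 194 CPM in WT cultures without overlap (1.60, SE 0.08), and the cholesterol exporter gene Abca1 rose with a wider spread (2.101, SE 0.44). The epidermal fatty acid binding protein gene Fabp5 (−1.10, SE 0.05) fell.

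Uptake and redox genes were lower for the most part. Of 31 glucose and amino acid transporter genes 18 fell and 8 rose (median −0.53). Slc7a1, which carries arginine and lysine into cells, came to 17.6, 13.2 and 13.2 CPM in KO and 112, 94.02 and 112 CPM in WT libraries (−2.84, SE 0.16), and the neutral amino acid carrier gene Slc1a4 rose (0.67, SE 0.07). Of 31 NRF2 target, iron and redox genes 21 fell and 6 rose (median −0.45). The iron genes went in opposite directions: Tfrc, the transferrin receptor gene, had 94.3, 73.2 and 87.6 CPM in KO libraries and 394, 365 and 387 CPM in WT libraries, and Ftl1, the ferritin light chain gene, had 1177, 1233 and 1186 CPM in KO libraries, against 665, 744 and 739.7 CPM in WT libraries. Neither overlapped (Tfrc −2.17, SE 0.10, Ftl1 0.74, SE 0.06, and Ftl1 0.49 with limma on log2(FPKM + 1)). Antigen presentation and complement genes were mixed, with 5 of 16 higher and 3 lower. The class I gene H2-K1 was at 10.6, 10.5 and 10.7 CPM in the KO and at 51.3, 47.9 and 51.6 CPM in the WT libraries (−2.24, SE 0.09) and was far lower in every KO library. The complement gene C4b (5.34, SE 0.54, and 0.75 with limma on log2(FPKM + 1)) rose, at 2.32, 6.396 and 4.31 CPM in KO libraries and 0.125, 0.131 and 0.0524 CPM in WT libraries.

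The shares of matrix and adhesion genes called in each direction lay near or below those of all genes tested (34.2% higher and 35.0% lower). Of 29 collagens 8 rose and 10 fell, of 45 laminins, proteoglycans and matricellular genes 15 rose and 17 fell, and of 19 integrins 3 rose and 6 fell. The 3 medians lay between 0.01 and 0.03, and each turned negative in at least 1 alternative fit. Col27a1, a fibrillar collagen gene, measured 110.0, 178 and 163 CPM in KO cultures and 11.98, 20.6 and 18.3 CPM in WT cultures, and Col18a1, a basement membrane collagen gene, came to 2.11, 1.71 and 1.69 CPM in KO and 65.8, 38.5 and 34.4 CPM in WT libraries. The 2 genes moved apart with no overlap in either (Col27a1 3.15, SE 0.23, Col18a1 −4.64, SE 0.34). The laminin beta 2 gene Lamb2 (1.62, SE 0.10) rose and osteopontin's gene Spp1 (−6.85, SE 0.44) fell. Itga4, for an integrin of migrating cells, had 3.002, 1.71 and 4.09 CPM in KO libraries and 72.7, 67.9 and 70.8 CPM in WT libraries (−4.61, SE 0.26). Cytoskeletal genes leaned one way, with 28 of 40 lower and 5 higher (median −0.74). Tpm1, a tropomyosin gene, had 41.9, 39.3 and 41.5 CPM in KO libraries, against 130.1, 113 and 109 CPM in WT libraries (−1.52, SE 0.07).

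Genes of receptor signalling showed opposite leanings for 2 growth factor families. Of 29 EGF and FGF receptor and ERK feedback genes 16 fell and 9 rose (median −0.34, and −0.52 with limma on log2(FPKM + 0.1)). The ligand genes Fgf1 (−2.20, SE 0.10) and Hbegf (−2.38, SE 0.19) fell, whereas the receptor gene Fgfr2 was at 108, 162 and 135 CPM in the KO and at 23.3, 29.2 and 22.7 CPM in the WT libraries, without overlap (2.43, SE 0.17). Of 29 BMP, TGF-beta and Id genes 19 rose and 4 fell (median 0.47). The BMP receptor genes Bmpr1a and Bmpr2 were both higher, Bmpr1a with 425, 443 and 446 CPM in KO libraries and 249, 273 and 269 CPM in WT libraries and Bmpr2 with 448, 483 and 489 CPM in KO libraries and 287, 297 and 290.4 CPM in WT libraries. Neither showed overlap (Bmpr1a 0.73, SE 0.05, Bmpr2 0.70, SE 0.05). The ligand gene Bmp7 (−0.83, SE 0.08) and the latency protein gene Ltbp1 (−1.46, SE 0.16) fell.

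Among axon guidance genes, semaphorins and plexins were mostly higher. The other guidance and adhesion lists lay nearer to the shares of all genes tested (34.2% higher and 35.0% lower). Of 28 semaphorins, plexins and neuropilins 17 rose and 5 fell (median 0.57, and 0.25 with limma on log2(FPKM + 1)). Sema6a, a transmembrane semaphorin gene, measured 172, 212 and 186 CPM in KO cultures and 57.4, 58.7 and 60.9 CPM in WT cultures, and the secreted semaphorin gene Sema3c came to 1.21, 0.857 and 1.06 CPM in KO and 14.4, 11.8 and 12.8 CPM in WT libraries. They differed in opposite directions without overlap (Sema6a 1.69, SE 0.07, Sema3c −3.63, SE 0.22). Eph receptors and ephrins had 8 higher (42.1%) and 6 lower (31.6%) of 19, with Efnb1 (1.58, SE 0.11) and Ephb3 (1.38, SE 0.10) higher and Epha2 (−3.58, SE 0.39) lower. Slits, Robos, netrins and their receptors had 9 higher (47.4%) and 7 lower (36.8%) of 19. The netrin receptor family gene Neo1 had 297, 353 and 312 CPM in KO libraries and 122, 114 and 116 CPM in WT libraries (1.45, SE 0.07), and the adhesion molecule gene Dscam (−1.81, SE 0.14) fell. Of 36 cadherin and synaptic adhesion genes 14 rose (38.9%) and 11 fell (30.6%). Cdh19 fell to under 1 CPM (−4.91, SE 0.18).

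Potassium, sodium and calcium channel and glutamate receptor genes were called in each direction about as often as all genes tested (34.2% higher and 35.0% lower). Of 54 potassium channel genes 23 fell and 16 rose, and of 26 voltage-gated sodium and calcium channel genes 9 fell and 7 rose. The small-conductance channel gene Kcnn2 had 80.3, 89.2 and 77.4 CPM in KO libraries, against 6.27, 10.5 and 6.23 CPM in WT libraries, while Kcna2, of the delayed rectifiers, was at 68.5, 89.997 and 82.2 CPM in the KO and at 369, 295 and 319.5 CPM in the WT libraries. Both were non-overlapping (Kcnn2 3.43, SE 0.30, Kcna2 −2.03, SE 0.10). Of 20 glutamate receptor genes 7 rose and 8 fell, the AMPA receptor genes Gria4 (1.40, SE 0.11) and Gria3 (−1.89, SE 0.10) on opposite sides. Of 10 GABA and glycine receptor genes 5 rose and 2 fell (median 0.72, and 0.23 with limma on log2(FPKM + 1)). The metabotropic receptor gene Gabbr1 measured 303, 382 and 289 CPM in KO cultures and 94.3, 94.4 and 82.5 CPM in WT cultures (1.85, SE 0.12). Synaptic vesicle genes leaned lower, with 14 of 24 lower and 3 higher (median −0.41, and −0.21 among those with at least 10 CPM), among them the fusion ATPase gene Nsf (−1.19, SE 0.08) and the complexin gene Cplx1 (−3.87, SE 0.30).

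Clock genes were mostly higher. Of 19 clock genes 13 rose and 2 fell (median 0.49). Nr1d2, which encodes the repressor REV-ERB beta, came to 197, 206 and 221 CPM in KO and 51.9, 56.6 and 52.6 CPM in WT libraries, and Per3 had 100.3, 113 and 110.4 CPM in KO libraries and 20.3, 24.1 and 24.5 CPM in WT libraries. No library crossed between groups (Nr1d2 1.95, SE 0.06, Per3 2.23, SE 0.12), and the activator gene Arntl was lower (−0.81, SE 0.12). Of 29 cilium genes 14 rose and 6 fell (median 0.25, but −0.07 among those with at least 10 CPM), among them the dynein motor gene Dync2h1 (0.74, SE 0.05), which rose, and the transport gene Ift27 (−0.97, SE 0.10), which fell.

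The deposited m6A regions of WT cells were set beside these changes, since they measure the mark that Mettl14 helps to place and took no part in the comparison. They come as 4 lists that set each of 2 immunoprecipitates against each of 2 inputs, so the lists share libraries. A gene was counted as marked where each of the 4 lists had a region over its exons, not always at the same place. Its number of regions is the lowest count over the 4 lists. Of 13668 tested genes with an annotated transcript, 5845 were marked, 3314 had regions in some lists only and 4509 had none. Marked genes had a median log2 fold change of 0.12, with 43.5% higher and 30.2% lower in KO. Unmarked genes had a median of −0.02, with 28.6% higher and 33.4% lower. The difference of these medians, 0.14, was 0.31 with regions at a −log10 q of 5 or more and 0.04 with a region in any 1 list counted as marked. Genes with regions in some lists only had a median of −0.17, below that of genes with none, with 25.6% higher and 45.4% lower. Among genes marked in all 4 lists the share of higher genes increased with the number of regions, at 37.9% with 1 region, 50.2% with 2 and 57.5% with 3 or more, where 21.3% were lower.

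Marked genes had higher RNA levels (median 46.9 CPM) than unmarked genes (8.09 CPM), and detection of a region moves with the level, so the shares were also taken within 4 equal bins of mean CPM. In the highest bin, genes with 3 or more regions had a median of 0.25 and 56.6% were higher, whereas genes without regions had a median of −0.31, with 15.7% higher and 63.0% lower. In the third bin the medians of these 2 classes were 0.39 and −0.21, and in the second 0.38 and −0.02. The lowest bin, below 8.01 CPM, ran the other way, with 0.12 for marked and 0.22 for unmarked genes, and it held only 15 genes with 3 or more regions. By transcript length, marked genes had the higher median in each of 4 equal bins, by the widest margin in the longest transcripts (0.22 for 2187 marked and 0.01 for 661 unmarked genes). In the third RNA batch, from other culture lines, the medians were −0.07 without regions, −0.09 with regions in some lists only and 0.05, 0.18 and 0.26 with 1, 2 and 3 or more.

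**Figure D3:**
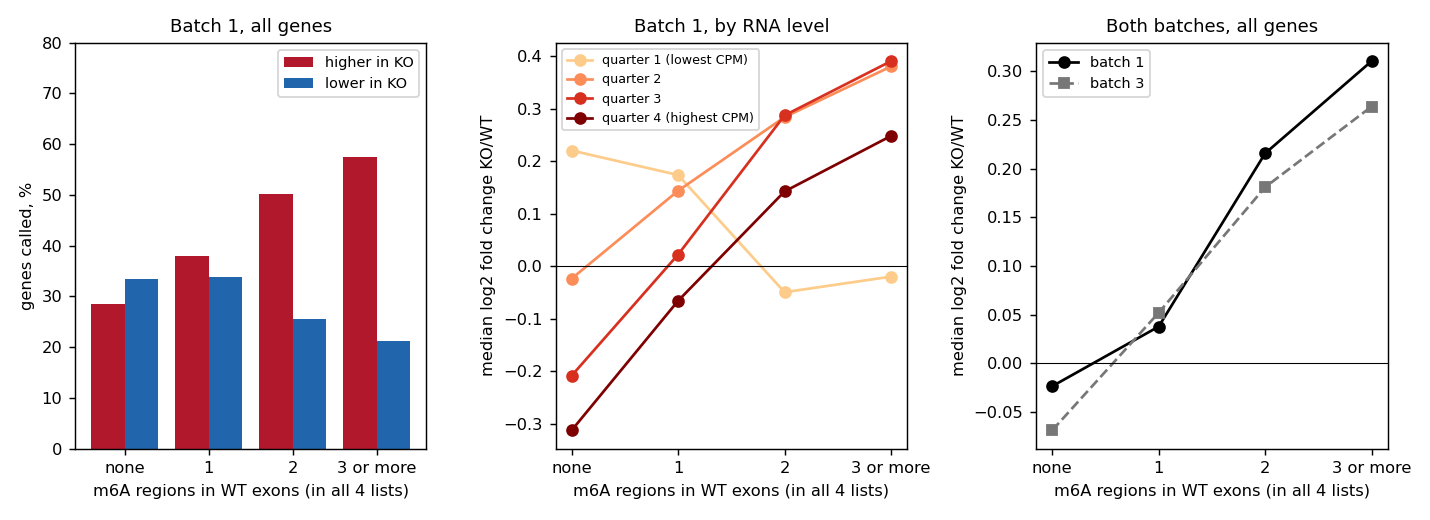
Left, genes called higher or lower in KO, in percent, by the number of m6A regions over their exons, taken as the lowest count over the 4 WT lists. Middle, median log2 fold change in KO over WT by the same classes within 4 bins of RNA level, where the 3 upper bins climb and the lowest does not. Right, the medians of batch 1 and batch 3, which both climb from below 0 without regions to above 0.25 with 3 or more. Genes with regions in some lists only are not drawn.

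The marked and unmarked genes can be seen among those described. Notch1, Nipbl and Zc3h13 had 5 regions each and rose, and Sox21 and Sema6a had 3 each and rose. Marked genes fell too: Akap12 had 4 regions, Zeb1 had 4 and Kcna2 had 5. Of the 20 synthetase genes 5 were marked, of 37 proteasome genes 6 and of 81 cytosolic ribosomal protein genes 3, compared with 25 of 35 decay factor genes and 24 of 29 EGF and FGF pathway genes.

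Histone marks at promoters were also set beside the RNA. They come from 2 KO and 2 WT lines other than those of this RNA batch, as peak lists of H3 acetylated (H3K27ac, found at active promoters) or trimethylated (H3K27me3, laid down by Polycomb) at lysine 27. A promoter was taken as marked where a peak lay within 1 kb of a transcript start. Most promoters did not differ: 85.7% had H3K27ac in all 4 lines and 80.3% had H3K27me3 in none. Where H3K27ac was found in both KO lines and no WT line, 20 of 33 genes had higher RNA in KO and 3 lower (median log2 fold change 1.12). Where it was found in both WT lines and no KO line, 22 of 104 were higher and 48 lower (median −0.53). H3K27me3 had the opposite arrangement: with the mark in both KO lines and no WT line 30 of 171 genes were higher and 97 lower (median −0.65), and with the mark in both WT lines and no KO line 50 of 80 were higher and 11 lower (median 0.86). In the third batch, which used the same lines as the histone data, the medians of these 4 classes were 0.52, −0.82, −0.75 and 0.45. The difference between the 2 H3K27ac medians, 1.65, was 0.79 with peaks within 2.5 kb and 0.66 with peaks that cover the start. Many genes of the first class had low levels (median 1.41 CPM), and a region near the calling threshold can be listed in one line and missed in another. Only genes that passed the low-count filter were counted. A gene nearly silent in 1 genotype can pass it through the other genotype alone, which favours calls towards that other genotype. The part of this in the counts was not tested. For comparison, with H3K27ac in all 4 lines 34.4% of genes were higher and 37.2% lower (median −0.02). With H3K27ac in no line 36.9% were higher and 17.0% lower (median 0.30, at a median of 2.38 CPM). With H3K27me3 in all 4 lines 33.8% were higher and 28.6% lower, and with it in no line 34.4% and 35.7% (medians 0.07 and 0.00).

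**Figure D4:**
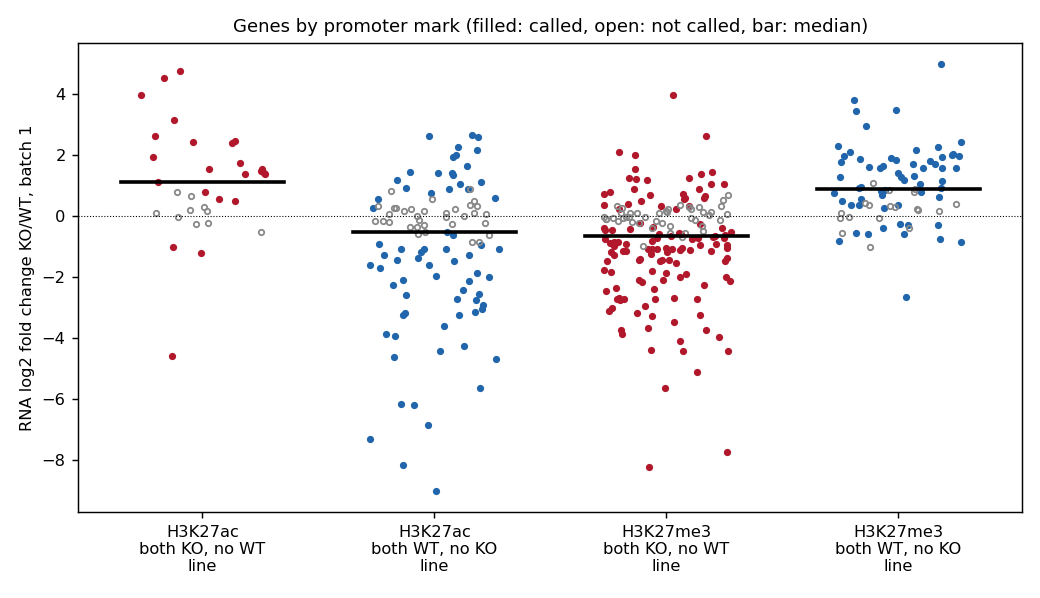
RNA log2 fold change in KO over WT of batch 1 for genes whose promoter carried a histone mark in both KO lines and no WT line (red) or in both WT lines and no KO line (blue). Filled points are called genes, open points genes not called, and bars the medians, which lie at 1.12 and −0.53 for H3K27ac and at −0.65 and 0.86 for H3K27me3.

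Only 5 genes differed in both marks. AI593442 had 0.158, 0.228 and 0.282 CPM in KO libraries and 14.1, 9.53 and 10.3 CPM in WT libraries, and with Gpx3, Pla2g16 and Scn3b it had lost acetylation and gained trimethylation in the KO lines. All 4 were lower in KO (log2 fold changes −5.65, −2.01, −1.10 and −1.09). Sema6b, a semaphorin gene with the reverse pattern, was higher (0.78). These 5 were named because the class was so small, after their values were seen.

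The promoters of 4 genes, 1 per class, are shown as examples from RefSeq (GRCm38.p6, the assembly of mm10), each covering 250 bases before and 50 bases after the annotated start on the strand of the gene, with the bases of each CG dinucleotide in capitals. Gpr179, an orphan receptor gene of retinal bipolar cells, had H3K27ac in both KO lines only (chr11:97352307-97352606, minus strand). Dhh had H3K27ac in both WT lines only (chr15:98898491-98898790, minus strand). Gpr98 had H3K27me3 in both KO lines only (chr13:81633095-81633394, minus strand). Lingo1, a leucine-rich repeat receptor gene of neurons, had H3K27me3 in both WT lines and no KO line at its assembled starts. Its window (chr9:56796261-56796560, minus strand) has a start upstream of the locus as the authors assembled it. Peaks of both WT lines lay within 1 kb of that start, where the KO lines were not checked.
Gpr179 promoter: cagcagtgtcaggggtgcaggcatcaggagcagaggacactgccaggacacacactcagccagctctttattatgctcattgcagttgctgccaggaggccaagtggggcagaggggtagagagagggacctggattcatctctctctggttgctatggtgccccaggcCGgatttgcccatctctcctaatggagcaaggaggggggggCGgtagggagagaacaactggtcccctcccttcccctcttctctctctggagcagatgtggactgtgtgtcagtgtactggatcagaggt
Dhh promoter: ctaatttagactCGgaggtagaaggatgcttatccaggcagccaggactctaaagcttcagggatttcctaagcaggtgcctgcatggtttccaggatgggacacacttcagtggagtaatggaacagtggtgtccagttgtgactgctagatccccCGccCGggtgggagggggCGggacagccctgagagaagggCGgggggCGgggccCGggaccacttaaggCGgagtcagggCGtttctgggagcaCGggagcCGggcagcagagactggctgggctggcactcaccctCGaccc
Gpr98 promoter: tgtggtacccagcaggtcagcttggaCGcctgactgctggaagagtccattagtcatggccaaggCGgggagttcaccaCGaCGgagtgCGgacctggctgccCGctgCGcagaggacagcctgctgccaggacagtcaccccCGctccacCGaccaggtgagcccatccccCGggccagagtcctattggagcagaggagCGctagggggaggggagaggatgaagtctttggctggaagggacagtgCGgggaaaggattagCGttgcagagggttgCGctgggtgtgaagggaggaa
Lingo1 promoter: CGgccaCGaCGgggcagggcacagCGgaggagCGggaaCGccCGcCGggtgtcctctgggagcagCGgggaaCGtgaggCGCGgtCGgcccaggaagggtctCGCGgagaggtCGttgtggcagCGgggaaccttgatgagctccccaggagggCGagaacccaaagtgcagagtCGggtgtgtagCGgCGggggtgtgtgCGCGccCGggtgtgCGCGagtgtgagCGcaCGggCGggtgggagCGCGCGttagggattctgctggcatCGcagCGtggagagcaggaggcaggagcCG

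The 4 windows differ in their CG content. The window of Gpr179 held 2 CG dinucleotides, that of Dhh 12, that of Gpr98 14 and that of Lingo1 35, where the median of the 32851 promoters in the table was 7. As many or more were found in 85.9%, 39.6%, 36.3% and 6.95% of all promoters. The GC box GGGCGG, searched on both strands with overlaps counted, occurred 1, 4, 0 and 1 times, and 35.7% of all promoters held it. RNA of Gpr179 was at 20.96, 28.7 and 30.3 CPM in KO libraries and 4.77, 5.19 and 3.14 CPM in WT libraries (2.62, SE 0.20). RNA of Lingo1 was at 55.3, 54.9 and 48.1 CPM in KO libraries and 12.6, 13.8 and 13.2 CPM in WT libraries (2.00, SE 0.10). In both the KO libraries were all higher, opposite to Dhh and Gpr98 above.

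Length and structure of the transcript moved with the change as well. In 4 equal bins by the longest annotated transcript, from short to long, the median log2 fold changes were −0.11, −0.02, −0.00 and 0.13, and in the top bin, from 5036 bases up, 43.5% of genes were higher and 29.9% lower. Genes with the fewest exons had the highest median of the 4 bins by exon number (0.23), and those with the most had −0.08. RNA level differed between the length bins too (median 59.6 CPM in the longest and 18.7 CPM in the shortest), and its part was not tested.

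The third RNA batch holds 2 KO and 2 WT libraries of other lines, and the same contrast there gave mostly the same direction. Over 13767 genes fitted over both batches, 6115 (44.4%) were called in batch 3, 3178 (23.1%) higher and 2937 (21.3%) lower in KO. Of 3987 genes past 1.5-fold in batch 1 that could be fitted, 3720 (93.3%) had the same sign in batch 3 (75.1% of all genes fitted did), 2672 (67.0%) were also called there and 37 were called with the opposite sign. The interaction of genotype and batch was called for 2615 genes (19.0%), and in 1845 of these the effect was smaller in batch 3. Most of the smaller effects were in genes past 1.5-fold in batch 1, a choice that favours large batch 1 values. Of 1327 such genes with a called interaction, 1265 were smaller in batch 3. Without 1 KO library of batch 1, the one with the fewest fragments, the interaction was called for 1442 genes, and without another KO or 1 WT library for 1619 and 1597. Gene lists differed in how near their batch 3 medians lay to those of batch 1. Lysosomal genes had a median of 0.58 in batch 3, with 21 of 31 higher and 3 lower, near the value of batch 1. Aminoacyl-tRNA synthetases had −0.53, with 14 of 20 lower, and proteasome genes −0.21, with 15 of 37 lower. Cytosolic ribosomal protein genes had the other sign, at 0.18 with 18 of 81 higher and 1 lower, as did mitochondrial ribosomal protein genes, at 0.15 with 23 of 68 higher and 6 lower. The respiratory chain list lay at −0.01. Of 38 lists, 11 had a median of the other sign in batch 3, among them the forebrain factors (−0.46, with 3 of 23 higher and 9 lower), the NPC markers (−0.08, with 3 of 18 higher and 6 lower), the collagens (−0.62) and the cilium genes (−0.14). Each batch was counted on an assembly of its own, with 32572 loci in batch 1 and 26458 in batch 3, so the locus of a symbol can differ between them. Batch, culture lines, assembly and any difference in time of sequencing cannot be told apart here.

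**Figure D5:**
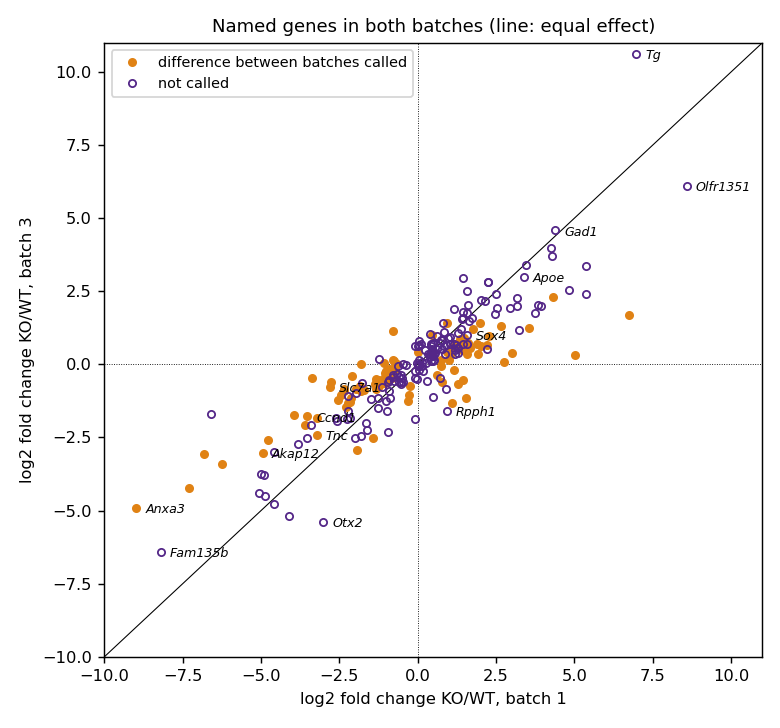
Log2 fold change in KO over WT in batch 1 (x axis) and batch 3 (y axis) for the genes chosen by the naming rule, leaving out the sex-linked ones. The line marks equal effects, and filled orange points are genes whose batches differed by the interaction test. Most points lie between the x axis and the line, with Tnc and Ccnd1 lower and Gad1, Tg and Apoe higher in both batches and Rpph1 of opposite sign.

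Some well-expressed genes stayed level. There were 317 uncalled genes at a mean of 100 CPM or more whose 95% interval of the log2 fold change lay within −0.25 to 0.25. The topoisomerase gene Top1 had 277, 263 and 272 CPM in KO libraries, against 288, 279.5 and 281 CPM in WT libraries (−0.06, SE 0.04), the cAMP response factor gene Creb1 was at 187, 178 and 187 CPM in the KO and at 189, 184 and 188 CPM in the WT libraries (−0.02, SE 0.04), and the exchange factor gene Arhgef12 measured 238, 238 and 236 CPM in KO cultures and 241, 234 and 227 CPM in WT cultures (0.02, SE 0.04). In Creb1 and Arhgef12 the groups overlapped, and in Top1 the KO libraries lay just below the WT libraries without a call. Creb1 had 3 m6A regions and Arhgef12 had 3, so marked genes were among those that stayed level.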

How the data were processed

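Per the submitters' processing notes, reads were aligned with TopHat2 2.1.0 and Bowtie2 2.3.1 to mm10 and quantified with Cufflinks and Cuffdiff. The deposited values used are estimated counts of fragments per locus, which the authors made per library before Cuffdiff's scaling, and the authors' FPKM of the same loci. The peak lists give the authors' fold enrichment and −log10 q per region, from MACS2 per the submitters' processing notes, with one list for each sample or pair of samples. Whether counting used strand is not given in the sources used here, so overlapping and antisense genes cannot be told apart.

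Loci were named by symbol and their counts summed and rounded (5.31% were not whole within 1e-09). Of 32572 loci, 8847 without a known name and 2 that Cuffdiff marked HIDATA were left out, 420 that join several genes kept their joint name, and the loci kept held 98.0% of fragments. The table of batch 2 repeats that of batch 1 and was not used. The test was edgeR 4.0.16's robust quasi-likelihood test after TMM scaling (0.9717 to 1.0424) and filterByExpr, over all 9 libraries of batch 1, with Benjamini-Hochberg adjustment over all genes tested. It was tested on simulated counts. Alternatives used limma 3.58.1 and DESeq2 1.42.0 in R 4.3.3, and overlaps bedtools 2.31.1. Library numbers in the tables do not name the culture line.

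Genes named are the 8 largest fold changes and CPM differences per direction, up to 4 called members per list by adjusted p, the markers, 2 per promoter class and direction, the steadiest genes and those that varied most within a genotype. Some of these genes are not reported here. Members and lists were chosen with earlier results of these data known. The lists' counts and medians are descriptions without a test.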

Additional observations from a re-analysis of the deposited data

Results flagged for a closer look

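Of 129 genes named above by their batch 1 fold change or level, 62 (48.1%, against 19.0% of all genes fitted over both batches) had an effect of the knockout that differed between batch 1 and batch 3 by the interaction of genotype and batch in edgeR's quasi-likelihood test (adjusted p from 8.8e-05 to 0.049, over 13767 genes). The values are the log2 fold change of batch 1 minus that of batch 3, so a gene that rose has a positive and a gene that fell a negative value where batch 1 had the larger change. Both come from 1 fit over the 2 batches, so batch 1 values can differ slightly from those above. The size was smaller in batch 3 for 61 of them (for 1845 of the 2615 such genes among all), and 6 had the opposite sign there. The genes were named for their batch 1 values, and batch, lines, assembly and any difference in sequencing time cannot be told apart.

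Among the largest changes the differences were −4.07 for Anxa3, −3.07 for Dhh, −2.84 for Golga7b, −2.21 for Tagln2, −1.91 for Akap12, 2.02 for Gm3604, 1.40 for 2610203C20Rik, −0.82 for Tnc, 0.54 for Marcks, 0.98 for Ntrk2, −0.76 for Hspa8 and −0.58 for Actb. Among NPC markers and progenitor factors the differences were −0.89 for Nes, −0.83 for Fabp7, −0.66 for Olig2, 0.71 for Notch1, 0.91 for Msi1, −2.92 for Pou3f1, 0.89 for Pou3f2, 0.50 for Sox21 and −1.13 for Nkx2-2. Among cell cycle, repair and cohesin genes the differences were −1.74 for Ccnd1, −0.56 for Cdk2, −1.41 for Dna2, −0.49 for Nbn and −0.48 for Smc1a. Among genes of protein synthesis, folding, turnover and energy the differences were −0.83 for Gars, −0.50 for Tars, −0.72 for Eif4a1, −0.49 for Psmc4, −0.70 for Cct3, −0.66 for Cct6a, 2.32 for Hspb8, −0.48 for Atp5f1, −0.57 for Hnrnpab, −0.58 for Srsf7 and 0.85 for Zfp36l1. Among uptake, iron, lysosome and antigen genes the differences were −2.04 for Slc7a1, −0.99 for Tfrc, −0.89 for Ctsz and −0.90 for H2-K1. Among matrix, signalling and guidance genes the differences were −3.75 for Spp1, 1.09 for Lamb2, −1.44 for Hbegf, 0.88 for Efnb1, 0.80 for Ephb3, 0.58 for Neo1 and −1.53 for Sema3c. Among channel, synapse, clock, cilium and promoter genes the differences were −1.11 for Gria3, 1.18 for Gabbr1, −0.50 for Nsf, 1.29 for Per3, 0.58 for Nr1d2, −0.72 for Ift27 and 1.34 for Gpr179. The 6 of opposite sign were Hes5 (difference 1.96, batch 1 1.44, batch 3 −0.52), Dync2h1 (difference 1.38, batch 1 0.78, batch 3 −0.61), Cnot4 (difference 0.80, batch 1 0.74, batch 3 −0.07), Fabp5 (difference −1.10, batch 1 −1.06, batch 3 0.04), Bmp7 (difference −0.94, batch 1 −0.79, batch 3 0.15) and Ckb (difference −0.66, batch 1 −0.65, batch 3 0.01). The one with the larger change in batch 3 was Ltbp1 (difference 1.11).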

How the results depend on the processing

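Genes past 1.5-fold numbered 2263 with limma on log2(FPKM + 1) (4053 in edgeR's test), those higher 1187 with log2(FPKM + 0.1) and 814 with log2(FPKM + 1) (2057 in edgeR's test). The share of calls that were higher, 49.5%, was 41.5% and 41.9% with limma at the 2 pseudocounts and 54.9% with library totals, which moved the median of all genes to −0.09, −0.07 and 0.08. DESeq2 called 4609 higher and 4720 lower. With single libraries left out, 8771 to 9444 genes were called, 3675 to 4233 were past 1.5-fold, and the difference between batches was called for 1442 to 3140 genes (2615 with all). The marked minus unmarked median, 0.14, was 0.31 with −log10 q of 5 or more, 0.25 with 100 bases of exon and 0.04 with any list. The H3K27ac difference, 1.65, was 0.79 within 2.5 kb, 0.66 over the start, and 1.22 to 1.64 with libraries left out. The repair gene Fancf was at −0.57 and −0.49 with limma at pseudocounts 0.1 and 1, opposite to edgeR's sign.

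None of the 119 called genes named here lost its call in any alternative that tested it (114 were tested at 10 CPM or more). Fancf still reversed its sign with limma, as given above. With limma on log2(FPKM + 1) 26 of the 119 genes moved by over 1.5 times, and with single libraries left out none did. Most of the 26 were low genes that the pseudocount pulls towards 0. Those of the 26 not given above were Cdh19 (−2.09), Col18a1 (−3.05), Cplx1 (−1.91), Epha2 (−1.73), Gpr179 (1.25), Itga4 (−2.44), Ltbp1 (−0.80), Otx2 (−1.21), Sema3c (−1.40), Spp1 (−3.39) and Vwf (0.51). Of 38 list medians, 8 changed sign in some alternative. Cdh2, not called above, was called without 1 WT library and with library totals (0.19 in both). No paired analysis was possible because library numbers in the tables are an order within a genotype and are not tied to lines, litters or days. Depth limits genes at a few fragments.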
